A study of Mus musculus with 17 samples.

Results

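The clustered histone genes encode the core histones H2A, H2B, H3 and H4 and the linker histone H1 that package newly copied DNA, and in the mouse they sit in groups named Hist1, Hist2, Hist3 and Hist4. They were followed here in whole embryonic kidneys by bulk RNA-seq, as FPKM (fragments per kilobase of transcript, scaled to the mapped fragments of the library), a level per transcript length. A gene was taken as a member when its symbol in GENCODE release 21 for mouse (GRCm38) started with Hist1h, Hist2h, Hist3h or Hist4h and its FPKM was 1 or more in at least 3 of the 17 libraries. That rule gave 60 of the 24432 genes in the table: 6 for H1, 17 for H2A, 15 for H2B, 10 for H3 and 12 for H4. By position, 50 belonged to Hist1 on chromosome 13, 6 to Hist2 on chromosome 3, 3 to Hist3 on chromosome 11 and 1 to Hist4 on chromosome 6. Hist2h3c2, listed at 0 in every library, fell outside the threshold, and 9 further genes of the family were not analysed here. Just inside it were 8 members that reached 1 FPKM in exactly 6 libraries (Hist1h1t, Hist1h2al, Hist1h2ba, Hist1h2be, Hist1h2br, Hist1h3f, Hist2h2ab and Hist2h4), all of them Six2-Cre 1 to 3 and wild types 7 to 9, while 27 members reached it in all 17. The annotation calls Hist1h2al and Hist3h2bb-ps pseudogenes.

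All kidneys were dissected at stage E12.5 from mice of mixed strain. The 5 Foxd1-Cre libraries (genotype Ctnnb1-delta3 c/+;Foxd1) carried 1 activated allele of beta-catenin switched on by a Cre active in the stromal lineage, and the 3 Six2-Cre libraries (Ctnnb1-delta3 c/+;Six2) carried it in the nephron progenitor lineage. The other 9 libraries were wild type and carried neither a Cre nor the allele, as far as the labels say. Whole kidneys were sequenced, so each mutant value mixes recombined cells with all the others, and fewer cells of a type cannot be told apart from less RNA per cell. The labels do not say whether replicates came from separate animals or litters, so the p-values below measure the spread between these libraries, which may be technical.

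The libraries fell into 2 sets by their number of genes at 0. Set 1 held Foxd1-Cre 1 to 5 and wild types 1 to 6, with 5312 to 5807 genes at 0. Set 2 held Six2-Cre 1 to 3 and wild types 7 to 9, with 7590 to 7891. Read off the smallest steps between values, depth was about 28800000 to 37500000 reads in set 1 and 5340000 to 5880000 in set 2. A single read on a transcript of 1 kilobase was thus worth 0.0266 to 0.0347 FPKM in set 1 and 0.170 to 0.187 FPKM in set 2. The beta-catenin target Notum followed the labels, at 2.70 FPKM in wild types 1 to 6 and 161 in Foxd1-Cre, and at 2.33 in wild types 7 to 9 and 59.0 in Six2-Cre. The markers of nephron progenitors (8 of 8 genes), ureteric bud (8 of 8) and stroma (6 of 6) averaged 1 FPKM or more in every group.

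Most clustered histone genes are transcribed in S phase, when the coactivator NPAT drives them together. Their mRNAs are the exception among protein-coding messages: they end not in a poly(A) tail but in a short 3′ stem-loop, which is bound by SLBP (stem-loop binding protein) and cut with the help of the U7 small nuclear ribonucleoprotein. A second class of histone genes outside the clusters, among them H2afz, H3f3a, H3f3b and H1f0, is expressed throughout the cell cycle and gives ordinary polyadenylated mRNA. Some clustered genes can also yield polyadenylated transcripts that run past the stem-loop.

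The stem-loop could be read directly from the annotated transcripts. The pattern searched was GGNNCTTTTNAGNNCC on the sense strand (N is any base), and 37 of the 60 members held it, against 52 of all other annotated genes (0.094%). Of the rest, 14 had no annotated 3′ untranslated region and 9 had one without the pattern, which says only that these letters are not in that model. The sequences below, written as DNA and read 5′ to 3′ from GENCODE transcripts, show the stem-loop in capitals with a few flanking bases for members named below, and for Hist1h4j as an example of another H4 form.
Hist1h1c: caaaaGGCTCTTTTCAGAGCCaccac
Hist1h1t: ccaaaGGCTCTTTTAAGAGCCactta
Hist1h2ao: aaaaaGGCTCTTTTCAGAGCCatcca
Hist3h2a: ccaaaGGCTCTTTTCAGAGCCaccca
Hist3h2ba: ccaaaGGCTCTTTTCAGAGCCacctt
Hist1h3b: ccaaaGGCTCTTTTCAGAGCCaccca
Hist1h4d: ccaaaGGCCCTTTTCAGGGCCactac
Hist1h4f: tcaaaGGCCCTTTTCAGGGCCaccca
Hist1h4i: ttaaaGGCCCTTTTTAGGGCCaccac
Hist1h4j: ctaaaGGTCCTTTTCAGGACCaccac
One form, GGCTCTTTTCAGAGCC, accounted for 20 of the 37 and was found in H1, H2A, H2B and H3 genes. The 10 H4 genes with a stem-loop used other stems: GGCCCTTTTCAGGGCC in 6, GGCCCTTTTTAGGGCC in 2 and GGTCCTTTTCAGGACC in 2. None of the 27 stem-loops of the other types had any of those 3 forms.

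The first comparison set the wild types of the 2 library sets against each other, with genotype constant. Nearly every clustered histone gene was far higher in wild types 7 to 9 than in wild types 1 to 6. By limma on log2(FPKM + 1), with a Benjamini-Hochberg adjusted p under 0.05 as the call, 58 of the 60 members rose and 1 fell, and 1 was not called. Of all genes tested 25.7% rose and 39.9% fell, 65.6% in all. The threshold on low values fixed part of that count: 15 members reached 1 FPKM in fewer than 3 libraries of set 1 and passed only through set 2, where they are high. They are 5 of the 6 H1 genes (all but Hist1h1c), Hist1h2al and Hist2h2ab for H2A, Hist1h2ba, Hist1h2be, Hist1h2br and Hist3h2bb-ps for H2B, Hist1h3f for H3, and Hist1h4a, Hist2h4 and Hist4h4 for H4, and their rise is a description only. Of the 45 that reached it in set 1 itself, 43 rose and 1 fell, with a median of 7.64 on the log2 scale, beside 24.4% and 41.5% of all genes with the same property. Over all 60 the median change was 7.76, and over all genes -0.11. Every library of wild types 7 to 9 lay above every one of wild types 1 to 6 for 58 members, beside 23.7% of all genes, and below for 1, beside 35.5%. The 58 include all 15 members that passed only through set 2. Of the other 45, 43 lay above and 1 below, beside 3051 and 4964 of the 13458 genes that reached the threshold in set 1. The all-gene median was -0.03 with median-ratio scaling and 0.00 with equal sums, and the share of all calls that were higher was 39.2% as deposited, 48.0% with median-ratio scaling and 51.9% with equal sums. Library set, sequencing depth and any difference in how the RNA was selected cannot be told apart here, and the labels state no selection.

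Summed FPKM by histone type showed the same gap in every library. The 6 H1 genes summed to 10.6 ± 1.83 FPKM (SD, n = 6) in wild types 1 to 6 and to 5282 ± 273 (n = 3) in wild types 7 to 9, a ratio of 501. The 17 H2A genes went from 125 ± 8.37 to 10743 ± 1040, a ratio of 85.9. The 15 H2B genes went from 109.5 ± 16.2 to 15429 ± 1120, a ratio of 141. For the 10 H3 genes the sums were 48.4 ± 5.92 and 8654 ± 1047, a ratio of 179, and for the 12 H4 genes 74.0 ± 16.0 and 28998 ± 2202, a ratio of 392. Together the members took 0.0371% to 0.045% of all FPKM in wild types 1 to 6 and 7.87% to 9.05% in wild types 7 to 9. These sums cover the 60 members only, those that passed through set 2 included, and no test was run on them. The median log2 change by type was 9.73 for H4, 9.06 for H1, 7.72 for H3, 6.64 for H2B and 6.56 for H2A. The order of the last 2 depends on the pseudocount: with 0.1 in place of 1 the medians were 7.48 for H2B and 7.54 for H2A, with H4 at 10.35, H1 at 10.21 and H3 at 8.21. The place of H1 rests on members that passed only through set 2, which are 5 of its 6 genes. Without such members the medians were 9.69 for H4, 7.56 for H3, 7.38 for H2B and 7.12 for H2A. Hist1h1c, the only H1 gene left, rose by 6.87.

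**Figure D1:**
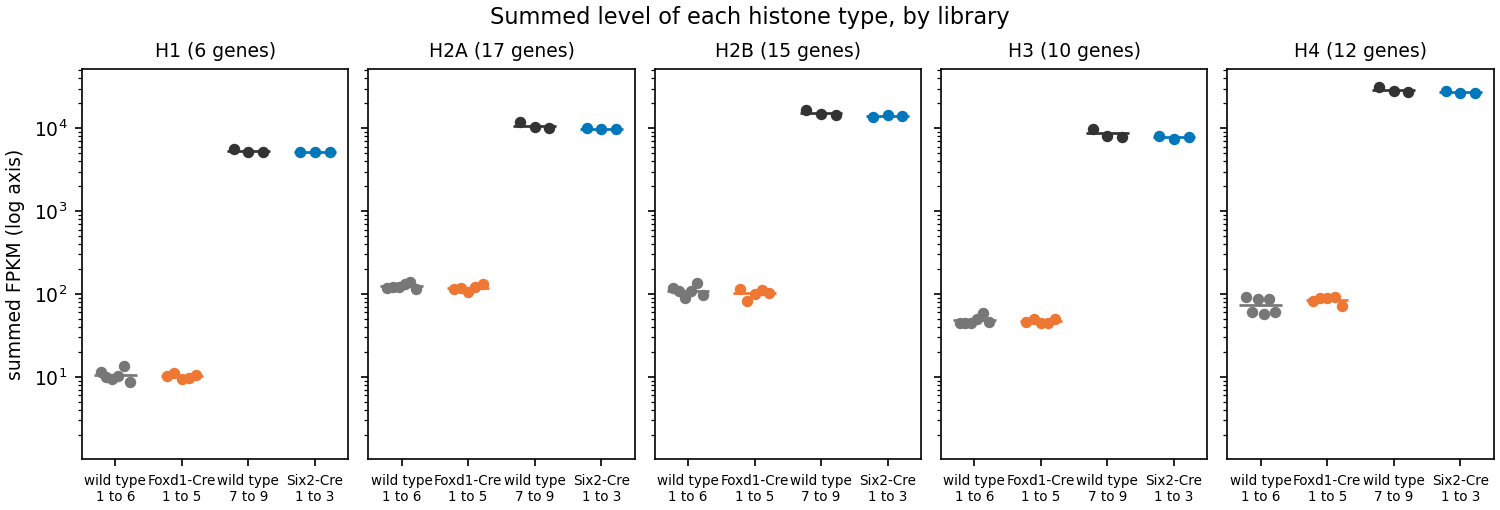
Summed FPKM of the members of each histone type in each library (points; log axis), with the group mean as a line, for wild types 1 to 6, Foxd1-Cre 1 to 5, wild types 7 to 9 and Six2-Cre 1 to 3. Both groups of the first library set lie far below both groups of the second for each type; the H4 sums average 74.0 FPKM in wild types 1 to 6 and 28998 FPKM in wild types 7 to 9.

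Among the H4 genes, which give the most conserved histone, Hist1h4d had the highest level of any member in wild types 7 to 9. Its FPKM ran from 3.21 through a median of 6.60 to 11.4 in wild types 1 to 6, and was 6332, 5661 and 5433 in wild types 7 to 9. The difference was 9.60 ± 0.26 (SE) on the log2 scale (limma adjusted p = 5.16e-09), and Hist1h4d stood at rank 10 of all genes by mean FPKM in wild types 7 to 9. Hist1h4m had 2.39, 3.33 and 4.95 FPKM as lowest, median and highest value in wild types 1 to 6 and 5103, 4623 and 4277 in wild types 7 to 9. With a pseudocount of 1 the highest log2 rise of all members was that of Hist1h4f, from a median of 1.42 FPKM (range 0 to 4.43) to 3391, 3132 and 3009 FPKM, or 10.27 ± 0.45. With a pseudocount of 0.1 Hist1h4a came first, at 11.69 against 11.29 for Hist1h4f. With 1, Hist1h4h rose by 9.93 on the log2 scale and Hist1h4c by 9.69, and Hist1h4a and Hist4h4, which passed the threshold only through set 2, by 10.03 and 9.80.

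Hist1h4i stood apart from the other H4 genes. It was the highest of all members in wild types 1 to 6, at 33.4, 41.5 and 68.0 FPKM as lowest, median and highest value, and only 385, 337 and 290 FPKM in wild types 7 to 9. Its rise was 2.86 ± 0.23 on the log2 scale (adjusted p = 6.58e-06), the smallest of the 12 H4 genes. It was named after its values were seen.

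Of the 6 linker histone genes, 5 averaged under 1 FPKM in wild types 1 to 6. Those 5 became members only through their level in set 2, so their low values in set 1 and their rise are not independent of the choice of members. Hist1h1d ran from 0.297 through a median of 0.593 to 1.70 FPKM there and was 1394, 1255 and 1256 FPKM in wild types 7 to 9, a rise of 9.60 ± 0.21 on the log2 scale. Hist1h1a rose by 9.38 ± 0.24, from a mean of 0.851 to 1184 FPKM. Hist1h1c, at 7.41 ± 0.782 FPKM (SD, n = 6) in wild types 1 to 6 and 983 ± 72.4 (n = 3) in wild types 7 to 9, had the highest H1 level in the first set and rose by 6.87 ± 0.08. The testis linker histone gene Hist1h1t was barely present in either, at a mean of 0.125 and 3.24 FPKM, and rose by 1.91 ± 0.11.

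For H2B, Hist1h2bn had 1.64, 3.03 and 5.84 FPKM as lowest, median and highest value in wild types 1 to 6 and 4385, 3775 and 3825 in wild types 7 to 9, a rise of 9.89 ± 0.32 on the log2 scale. Hist1h2bg rose by 9.09 ± 0.30 and Hist1h2bj by 7.38 ± 0.18. Hist1h2ba, a testis-type H2B gene, was listed at 0 in all 6 of wild types 1 to 6 and at 75.8, 110 and 112 FPKM in wild types 7 to 9, so no fold is given. For H2A, Hist1h2ao had a mean of 2269 FPKM in wild types 7 to 9 and ran from 0.134 to 7.50 in wild types 1 to 6. The low value was wild type 1, and the rise was 8.75 ± 0.57. Hist2h2aa2 and Hist1h2ab rose by 8.30 and 8.37. For H3, Hist1h3b rose by 8.21 ± 0.22 (3.45 to 8.47 FPKM in wild types 1 to 6; 2071, 1658 and 1803 in wild types 7 to 9), Hist1h3e by 8.12 ± 0.22, and Hist1h3c by 5.65 ± 0.10.

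The exceptions were few. Hist1h2aa, an H2A gene known from testis, was the 1 member that fell: it ran from 2.71 through a median of 4.07 to 7.80 FPKM in wild types 1 to 6 and was 1.39, 1.45 and 0.760 in wild types 7 to 9 (-1.25 ± 0.25 on the log2 scale, adjusted p = 0.00174). Its model has 390 bases, so those values of wild types 7 to 9 rest on very few reads. It also overlaps Gm44344 on the opposite strand. Hist2h2be did not pass the test: its mean was 4.88 ± 1.00 FPKM (SD, n = 6) and 5.65 ± 0.746 (n = 3), a difference of 0.19 ± 0.15 (adjusted p = 0.294), and it was named after its values were seen. Its annotated 3′ untranslated region of 2192 bases lacks the stem-loop pattern and has a poly(A) signal (AATAAA or ATTAAA) in its last 50 bases. The 3 Hist3 genes rose the least of the 4 groups, with a summed ratio of 8.21. Hist3h2ba rose by 1.66 ± 0.24 and Hist3h2a by 3.98 ± 0.10.

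**Figure D2:**
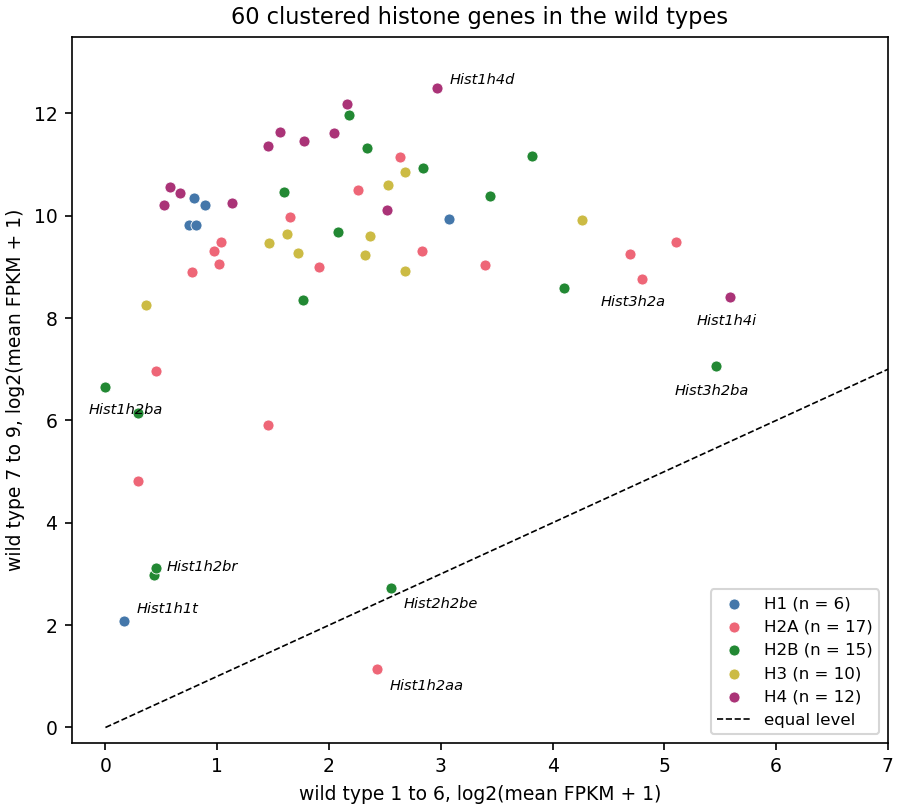
Mean FPKM of each of the 60 members in wild types 1 to 6 (x axis) and wild types 7 to 9 (y axis), both as log2(mean FPKM + 1), coloured by histone type, with the line of equal level dashed. All but Hist1h2aa and Hist2h2be lie well above the line; Hist3h2ba and Hist1h4i have the highest levels in wild types 1 to 6, at 43.2 and 47.0 FPKM.

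The order of the members was not kept between the sets. Only 8 members averaged 10 FPKM or more in wild types 1 to 6 (Hist1h4i, Hist3h2ba, Hist1h2ag, Hist3h2a, Hist1h2ai, Hist1h3c, Hist1h2bc and Hist1h2bj), while 55 did in wild types 7 to 9 and 24 averaged 1000 or more. Across the 60 members the mean levels of the 2 sets had a Spearman rho of 0.209, a description over genes that share reads and libraries. Wild type 7 had the highest value of its group for 52 of the 60 members and wild type 9 the lowest for 41. In wild types 1 to 6, wild type 5 was highest for 31 of the 59 members with any value there.

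The transcript models added 1 further split, chosen after the data were seen. The 14 members with a poly(A) signal in the last 50 bases of the model had a median log2 rise of 5.73, and the 46 without one 8.04. Their ranges overlapped widely, from 0.19 to 10.03 with the signal and from -1.25 to 10.27 without. Both groups hold members that passed only through set 2, whose rise was part of their choice. Those with the signal are Hist1h1t, Hist1h2be, Hist1h2br, Hist1h4a, Hist2h4 and Hist4h4. The 19 members whose model ran more than 100 bases past the stem-loop had a median of 8.12, the 18 whose model ended sooner 7.87, the 9 with a 3′ untranslated region lacking the pattern 7.12, and the 14 with no such region in the model 6.94. Among these classes, only the 18 hold no member that passed only through set 2. Near-identical copies limit every value for a single member. In 34 of the 60, more than 50% of the transcript's stretches of 31 bases also occur in another gene, and in Hist2h2aa2 and Hist2h3b 100% do. Of all members, 21 overlap another annotated gene, and the labels do not state a strand.

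Other genes of the system were read from lists. Of 19 other RNAs without a poly(A) tail that were listed, 10 had values here. All 10 rose, with a median of 7.63 on the log2 scale. They passed the same threshold as the members, and any that did so only through set 2 were not separated. Their rise is thus a description only. The RNase MRP RNA Rmrp averaged 13.7 FPKM in wild types 1 to 6 and 44611 in wild types 7 to 9, the RNase P RNA Rpph1 4.60 and 17582, and the telomerase RNA Terc 1.07 and 70.7. Of the 11 histone variant genes outside the clusters, 0 rose and 8 fell (median -0.30), among them H2afz, the H2A.Z gene, by 0.39 on the log2 scale. Of 12 polyadenylated reference mRNAs, 2 rose and 8 fell (median -0.38). Of 31 DNA replication genes, 4 rose and 14 fell, and of 20 genes of G2 and mitosis, 6 rose and 6 fell. All these list counts are to be read against the 25.7% of all genes that rose and the 39.9% that fell.

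Genes that make and process histone mRNA were called about as often as genes at large (25.7% higher and 39.9% lower), with 6 of 25 rising and 11 falling (median -0.09). Npat rose from 9.12 to 16.0 FPKM (0.75 ± 0.06). Cpsf3, the endonuclease that cuts the 3′ end, fell from 479 to 149 FPKM (-1.69 ± 0.08). Slbp averaged 75.7 and 79.6 FPKM and did not pass the test (adjusted p = 0.107). Of 16 histone chaperones, 4 rose and 10 fell. The summed erythroid markers were 4031 to 7996 FPKM in wild types 1 to 6 and 7891 to 9497 in wild types 7 to 9, the neural markers 201 to 301 and 368 to 469, and the endothelial markers 106 to 139 and 76.2 to 94.9. Their part in the histone difference was not tested.

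Next, Foxd1-Cre kidneys were compared with wild types 1 to 6, to ask what stromal beta-catenin activation did to these genes. No member passed the test: 0 rose and 0 fell in limma, beside 8.45% and 4.82% of all genes. An unadjusted p under 0.05 was found for 6 of the 60 members, beside 3538 of the 13996 genes tested. Of all calls in this comparison 63.7% were higher as deposited and 75.1% with equal sums. No member separated all 5 Foxd1-Cre libraries from all 6 wild types, which 6.89% of all genes did upward and 3.8% downward. The median member changed by -0.05, and the estimates ran from -0.65 to 0.67. The 95% interval lay within 1 log2 unit of 0 for 55 members and within 0.5 for 23, so small differences were not detectable at these levels. Means were under 1 FPKM for 17 members in wild types 1 to 6 and for 18 in Foxd1-Cre. With 1 added, even a large fold at such levels gives an estimate near 0, so those intervals set no bound on the fold. With a pseudocount of 0.1 the number of members called was also 0.

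Summed by type, Foxd1-Cre and wild type overlapped. H1 summed to 10.2 ± 0.706 FPKM (SD, n = 5) in Foxd1-Cre, H2A to 119 ± 8.64, H2B to 102 ± 12.8, H3 to 47.2 ± 2.29 and H4 to 84.9 ± 8.63. In set 1 the H1 sum rests largely on Hist1h1c and the H4 sum on Hist1h4i. In wild types 1 to 6 Hist1h4i averaged 47.0 FPKM of an H4 sum of 74.0. The median H4 estimate was -0.03 on the log2 scale, with 7 of 12 below 0. Over all members the ratio to wild type was 0.989. The smallest adjusted p belonged to the H3 gene Hist1h3i, named after its values were seen, at 2.75 ± 0.621 FPKM in Foxd1-Cre and 4.14 ± 0.935 in wild types 1 to 6 (-0.45 on the log2 scale, adjusted p = 0.0626). It passed without wild type 1 (adjusted p = 0.0455) and without wild type 6 (0.0441). Without Foxd1-Cre 5, Hist1h2ae passed instead (-0.33, adjusted p = 0.0206).

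Around the histone genes, Slbp itself fell slightly. It was 70.1, 69.2, 69.8, 71.0 and 69.5 FPKM in Foxd1-Cre against a mean of 75.7 in wild types 1 to 6, a change of -0.11 ± 0.02 on the log2 scale (limma adjusted p = 0.0042), and every Foxd1-Cre library lay below every wild type. Upf1, a helicase of histone mRNA decay, was the other of the 2 of 25 processing genes that fell, and 0 rose. Those counts, and the 1 of 16 for chaperones, are to be read against the 4.82% of all genes that fell. Of 31 DNA replication genes, 7 fell and 0 rose, including Prim1, a primase subunit (-0.19), Gins1 of the replicative helicase (-0.18) and Ccne1, cyclin E1 (-0.29). Of 16 chaperones, only Nasp, which carries H3 and H4, fell (-0.14, adjusted p = 0.0421) and 0 rose. Of the 11 variants, 1 rose (H2afy2, a macroH2A gene, 0.14), a share near the 8.45% of all genes that rose, and 0 fell. No gene of the G2 and mitosis list passed, with 0 of 20 also at an unadjusted p under 0.05. Cell type markers moved in the same comparison. The 6 stromal markers summed to 276 to 314 FPKM in Foxd1-Cre against 506 to 569 in wild types 1 to 6, and 4 fell. The 8 nephron progenitor markers summed to 296 to 348 against 387 to 463, and 6 fell. Erythroid markers summed to 3328 to 5548 against 4031 to 7996, where 2 of 7 tested fell, and endothelial markers to 122 to 160 against 106 to 139, where 2 of 6 rose. Neural markers summed to 308 to 341 against 201 to 301, and 1 of 5 tested rose. Their part in the changes of the lists was not tested.

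**Figure D3:**
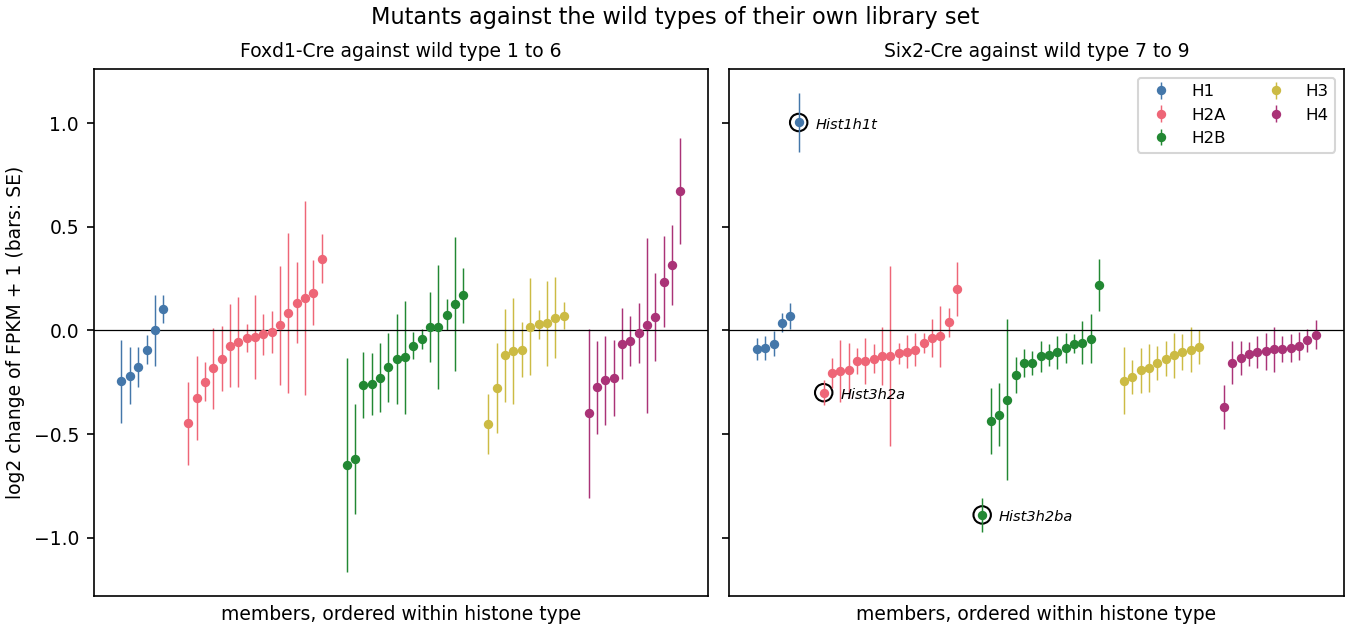
Log2 change of FPKM + 1 of each of the 60 members in Foxd1-Cre against wild types 1 to 6 (left) and in Six2-Cre against wild types 7 to 9 (right), ordered within histone type; bars are limma standard errors and circles mark members with an adjusted p under 0.05. No member is circled on the left, and Hist1h1t (1.00), Hist3h2a (-0.30) and Hist3h2ba (-0.89) are circled on the right.

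Six2-Cre kidneys were compared with wild types 7 to 9, to ask the same of activation in nephron progenitors. Here 3 members passed the test: Hist1h1t rose, and Hist3h2ba and Hist3h2a fell. In all genes tested 7.93% rose and 5.84% fell. The other 57 did not pass. Estimates were below 0 for 54 of the 60 members, with a median of -0.11, beside 51.8% of all genes below 0 and a median of -0.01. In 14 members every Six2-Cre library lay below every wild type, and in 1 above, beside 17.7% and 18% of all genes. Wild type 7 was the highest of its group for most members, and without it the median was -0.04 and 48 of 60 lay below 0.

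Hist3h2ba, an H2B gene of the Hist3 group (chromosome 11, 58948920 to 58949533, plus strand, GRCm38), showed the clearest change. It was 146, 135 and 120 FPKM in wild types 7 to 9 and 75.0, 72.1 and 67.6 in Six2-Cre, with no overlap. The change was -0.89 ± 0.08 on the log2 scale (limma adjusted p = 0.00192), with adjusted p from 0.0031 to 0.0126 when any 1 library was left out. In set 1 it ran from 22.3 to 57.2 FPKM in wild type and averaged 40.1 ± 13.0 (SD, n = 5) in Foxd1-Cre, a change of -0.13 with a 95% interval from -0.73 to 0.47.

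Its neighbour Hist3h2a (58954685 to 58956830, plus strand) encodes an H2A. It was 460, 400 and 451 FPKM in wild types 7 to 9 and 359, 358 and 345 in Six2-Cre, again with no overlap, a change of -0.30 ± 0.06 (adjusted p = 0.0262). This call was lost when wild type 7 or 9 or any 1 of the 3 Six2-Cre libraries was left out (adjusted p up to 0.0946). Trim17, which overlaps Hist3h2a on the same strand, averaged 1.70 and 1.22 FPKM and did not pass (adjusted p = 0.343). The third Hist3 member, the pseudogene Hist3h2bb-ps, was 10.2, 4.91 and 8.07 FPKM in wild type and 3.01, 9.41 and 6.15 in Six2-Cre, which overlap.

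Hist1h1t (chromosome 13, 23695814 to 23696725, plus strand) encodes the linker histone known from male germ cells. It was 3.34, 3.76 and 2.62 FPKM in wild types 7 to 9 and 6.73, 8.70 and 7.02 in Six2-Cre, a rise of 1.00 ± 0.14 (adjusted p = 0.00789) that passed with any 1 library left out. It is the 1 member that shares none of its stretches of 31 bases with another gene, and no annotated gene overlaps it. In Foxd1-Cre it averaged 0.0526 FPKM against 0.125 in wild types 1 to 6, values of a few reads. When the mutant effects were compared directly, 0 members were higher and only Hist1h1t was lower in Foxd1-Cre, beside 5.76% and 5.24% of all genes. With 1 added to values this near 0, its Foxd1-Cre effect could hardly differ from 0, so this call restates its Six2-Cre rise and says nothing of Foxd1-Cre. For Hist3h2ba the difference was 0.76 (95% interval 0.14 to 1.38, adjusted p = 0.114), and for Hist3h2a 0.28 (0.04 to 0.52, adjusted p = 0.135).

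**Figure D4:**
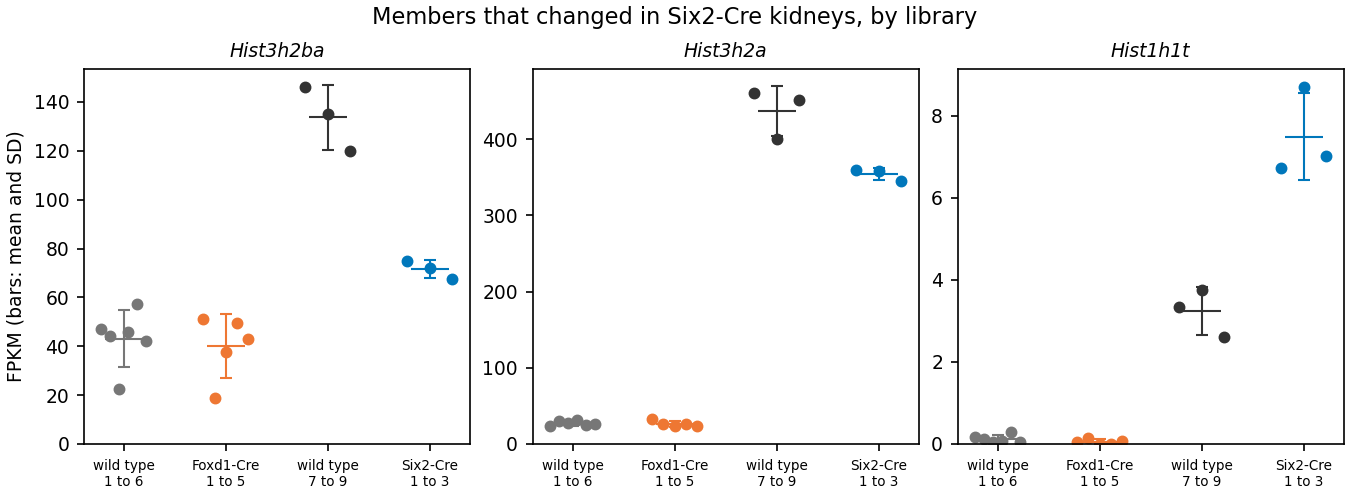
FPKM of Hist3h2ba, Hist3h2a and Hist1h1t in each library (points), with group mean and SD, for wild types 1 to 6, Foxd1-Cre 1 to 5, wild types 7 to 9 and Six2-Cre 1 to 3; each axis starts at 0. In the second library set the Six2-Cre values of Hist3h2ba (67.6 to 75.0) and Hist3h2a (345 to 359) lie below the wild types, and those of Hist1h1t (6.73 to 8.70) above.

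The promoters of these 3 genes are shown because they are the members that moved. Each run is the 250 bases before the RefSeq start site on GRCm38.p6, plus strand, with matches to the TATA box (TATAAA), the CCAAT box (CCAAT) and the octamer bound by Pou2f1 (ATTTGCAT) on either strand in capitals.
Hist3h2ba (chr11:58948661-58948910): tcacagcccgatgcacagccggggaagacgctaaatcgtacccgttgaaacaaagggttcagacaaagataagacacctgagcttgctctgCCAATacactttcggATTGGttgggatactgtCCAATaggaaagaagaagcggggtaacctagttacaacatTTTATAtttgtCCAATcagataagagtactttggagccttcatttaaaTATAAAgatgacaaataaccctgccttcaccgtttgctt
Hist3h2a (chr11:58954435-58954684): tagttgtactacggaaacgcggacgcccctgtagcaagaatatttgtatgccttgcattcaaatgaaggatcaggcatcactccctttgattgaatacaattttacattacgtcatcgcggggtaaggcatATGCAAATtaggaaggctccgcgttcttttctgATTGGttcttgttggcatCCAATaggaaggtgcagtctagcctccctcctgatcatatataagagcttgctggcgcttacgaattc
Hist1h1t (chr13:23695561-23695810): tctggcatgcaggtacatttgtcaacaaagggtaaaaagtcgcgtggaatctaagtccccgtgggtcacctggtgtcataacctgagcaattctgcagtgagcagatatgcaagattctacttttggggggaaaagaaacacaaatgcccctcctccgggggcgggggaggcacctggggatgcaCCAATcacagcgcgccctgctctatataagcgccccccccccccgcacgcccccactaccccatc
In RefSeq, 53 of the 60 members had a promoter. CCAAT was in 84.9% of them, against 33.8% of all 32851 promoters of that length, and TATAAA in 52.8% against 12.4%. The octamer was in 20.8% against 1.6%, and only in H2A (7 of 16) and H2B (4 of 12) genes. CCAAT was in all promoters of the H1, H2A, H2B and H3 members that matched and in 3 of 11 for H4. In the 3 sequences shown no match overlaps one of another motif, and a match is a description of the sequence.

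Summed by type, Six2-Cre averaged somewhat below wild type: H1 5172 ± 21.6 FPKM (SD, n = 3), H2A 9925 ± 154, H2B 13995 ± 329, H3 7803 ± 341 and H4 27107 ± 850. The ratios to wild types 7 to 9 were 0.979, 0.924, 0.907, 0.902 and 0.935. The H2B sums did not overlap (13668.5 to 14326.1 FPKM in Six2-Cre, 14583.3 to 16699.7 in wild types 7 to 9), and those of the other types did. No test was run on the sums. The highest member, Hist1h4d, was 5563, 5307 and 5333 FPKM in Six2-Cre, which overlaps its wild types, and its 95% interval ran from -0.29 to 0.09. For 56 of the 60 members the interval lay within 1 log2 unit of 0 and for 48 within 0.5. A further 2 members passed when 1 library was left out: Hist1h2ba fell by 0.59 (adjusted p = 0.00712) without wild type 7, and Hist1h4i fell by 0.47 (adjusted p = 0.0261) without wild type 9.

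Of 16 histone chaperones, 6 fell and 0 rose in Six2-Cre, beside 5.84% of all genes that fell, including Nap1l1 (-0.24), Nasp (-0.27), Rbbp4, a subunit of the chromatin assembly factor (-0.20), and Cabin1 (-0.21). Of 31 DNA replication genes, 5 fell and 0 rose, among them the helicase subunits Mcm6 (-0.34), Mcm7 (-0.36) and Mcm2 (-0.19) and the ribonucleotide reductase subunit Rrm2 (-0.19). Of 25 genes for making and processing histone mRNA, 2 fell and 0 rose, a share near that of all genes: Pou2f1, 24.1, 34.9 and 32.5 FPKM in wild type and 13.4, 14.7 and 13.0 in Six2-Cre (-1.08 ± 0.14, adjusted p = 0.00587), and the cap-binding gene Ncbp1 (-0.21). Slbp averaged 79.6 and 84.2 FPKM and Npat 16.0 and 15.8, and neither passed. Of the 11 variants, H1f0 rose (0.25), and H3f3a (-0.18) and H2afz (-0.17) fell, beside 7.93% of all genes that rose and 5.84% that fell. No gene of the G2 and mitosis list passed, with 0 of 20 at an unadjusted p under 0.05, beside 4083 of the 13828 genes tested. Nephron progenitor markers summed to 170 to 180 FPKM in Six2-Cre against 334 to 391 in wild types 7 to 9, with 6 of 8 lower by the test, and ureteric bud markers to 155 to 160 against 196 to 212, with 5 of 8 lower. Erythroid markers summed to 3973 to 4953 FPKM in Six2-Cre against 7891 to 9497 in wild types 7 to 9, and all 6 endothelial markers rose (summed 165 to 174 FPKM against 76.2 to 94.9). Macrophage markers summed to 19.5 to 21.7 FPKM against 12.3 to 16.9, and 2 of 5 tested rose. Neural markers summed to 267 to 336 FPKM against 368 to 469, yet 2 of 5 tested rose and 0 fell. The median neural change was 0.13 on the log2 scale, with estimates from -0.53 to 1.42. Their part in these changes was not tested.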

How the data were processed

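RNA-seq of 17 libraries of dissected kidneys was analysed. Per the labels' protocols, RNA came from an RNeasy Micro kit extraction and was sequenced by Illumina protocols, with neither strand nor RNA selection stated. Per the submitters' processing notes, bcl2fastq 2.17.1.14 and Salmon were used on GRCm38. FPKM values were deposited as 1 table. The gene-level summary, annotation release and any scaling are not given in the sources used here. Groups came from the sample titles.

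Genes with 1 FPKM or more in at least 3 libraries were kept (14014), and log2(FPKM + 1) was the response in limma models (version 3.58.1; R 4.3.3; trended prior variance). P-values were adjusted by Benjamini-Hochberg over every gene fitted (14008, 13996 and 13828 tested for the wild-type sets, Foxd1-Cre and Six2-Cre). The test is two-sided, and a call is an adjusted p under 0.05. A log2 change on this scale understates the change of genes near 0. Each mutant was fitted only with wild types from the same library set, and the 2 effects were compared in 13810 genes with Satterthwaite degrees of freedom. Scripts were tested on simulated data. Tables were made with Python 3.11.15.

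Depth was estimated from the smallest steps between FPKM values in genes with transcripts of 1500 to 4000 bases, and covers counting error only. The members and gene lists were chosen with earlier results of these data known. Named were the 3 members of each type with the highest mean, up to 6 called members per direction and comparison, up to 4 genes per list with the smallest p, and the label checks. Alternatives changed the pseudocount, filter, scaling, block and wild types used, and left out each library.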

Additional observations from a re-analysis of the deposited data

Results flagged for a closer look

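Of 51 groups of named members tested for a sample far from the others, 3 had one, where chance gives about 1 in 20 groups. Hist1h2ba was listed at 0.3 FPKM in Foxd1-Cre 3 and at 0 in the other 4 Foxd1-Cre libraries. Hist1h2bg was 8.62 FPKM in wild type 5 and 2.12 to 4.02 in the others of wild types 1 to 6. Hist1h4d was 10.4 FPKM in Foxd1-Cre 5 and 6.68 to 7.50 in the other Foxd1-Cre libraries. For Hist1h1t the 2 mutant effects differed by -1.10 on the log2 scale, Foxd1-Cre less Six2-Cre (limma adjusted p = 0.00173) and -1.74 with a pseudocount of 0.1 (adjusted p = 0.0117). All 3 Six2-Cre libraries lay above wild types 7 to 9, while every value in set 1 was at or near 0. With 1 added, a Foxd1-Cre effect could hardly register there, so that difference restates the Six2-Cre rise. With 0.1 added the Six2-Cre rise was 1.19, so part of the difference of -1.74 came from set 1 values of a few reads. In Foxd1-Cre itself Hist1h1t passed in no alternative (limma adjusted p of 0.348 or more).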

How the results depend on the processing

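In the wild-type comparison each named member kept its direction and its side of the threshold in all 13 alternatives. In Foxd1-Cre the number of members that fell, 0 as reported, was 1 with the replicate block (Hist1h3i, adjusted p = 0.0163 by limma) and 0 to 1 when each library was left out. Wild type 6 shares its number with no Foxd1-Cre library, so the block also removes it from the estimate, and leaving it out alone gave the same call (adjusted p = 0.0441). The replicate numbers do not pair these libraries: the 5 correlations of same-numbered deviations ran from 0.0224 to 0.0993 and no library correlated best with its own number. No paired analysis was possible for the other comparisons because their groups share no replicate numbers. In Six2-Cre the number that fell, 2 as reported, was 1 to 2 when each library was left out and 0 against all 9 wild types. Against all 9, Hist3h2ba turned to 0.21 (adjusted p = 0.741) and Hist3h2a to 2.35 (adjusted p = 0.109); that setting mixes the library sets. Members with a higher effect in Foxd1-Cre than in Six2-Cre, 0 as reported, numbered 0 to 2 when each library was left out: Hist1h4i and Hist1h2ac without wild type 1 or 9, Hist1h2ac without wild type 2 or 5 or Foxd1-Cre 3, Hist1h4i without wild type 3 or Foxd1-Cre 5, Hist3h2ba without Foxd1-Cre 2, and Hist1h2ba without wild type 7. The cause was not tested. At the depth of set 2, values near 1 FPKM on a short transcript rest on few reads.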

Other observations

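The 11 members with an octamer in the promoter had a median Six2-Cre change of -0.14 on the log2 scale, and all 11 estimates were below 0. The 42 members whose promoter lacked it had a median of -0.09, with 36 below 0. In Foxd1-Cre the medians were -0.06 and -0.05. None of the 11 passed the test in either mutant except Hist3h2a in Six2-Cre, and the split was chosen after the data were seen. It also follows histone type, since the octamer was only in H2A and H2B members. The Six2-Cre median was -0.12 for all H2A members and -0.12 for all H2B members. Pou2f1 varied widely within wild types 1 to 6 (12.3 to 33.0 FPKM), and its part in these changes was not tested.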
